A study of Mus musculus with 6 samples.

Results

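The genes described here are 6 cyclin-dependent kinase (CDK) inhibitor genes, Cdkn1a, Cdkn1b, Cdkn2a, Cdkn2b, Cdkn2c and Cdkn2d, and 4 genes of the p53 response, Trp53, Mdm2, Ccng1 and Phlda3. They are a list of 10 symbols among the 43629 gene identifiers counted, all 10 were found, and all 10 had enough reads to be tested. The list was drawn up with results of the same comparison known, so the differences between the groups are given for these genes as a description. Their p-values are not given, and where the genes are counted against thresholds applied to all genes, nothing is read from the count.

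Poly(A)-selected RNA was sequenced from keratinocytes of 3 control and 3 Dnmt1Δ/Δep female mice. In Dnmt1Δ/Δep mice a Cre recombinase driven by the Keratin 5 promoter deletes floxed Dnmt1, the gene of the maintenance DNA methyltransferase, in the epidermis from embryonic stages on. The study names Dnmt1 f/f and Dnmt1 f/+ mice without Cre as controls, a survival comparison of the study also counted Cre-positive heterozygotes among them, and the labels of these libraries say only control. Epidermis was taken at postnatal day 3, and the cells were grown in low-calcium keratinocyte medium on coated dishes, for 5 days by the labels, although a legend of the study gives a shorter culture. The mice were of a mixed C57BL/6J 129SV background, and the libraries describe cultured cells rather than skin. The comparison addresses which effects of losing DNMT1 arise in keratinocytes themselves, away from the immune cells of the tissue.

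CDK inhibitors hold the cell cycle in G1. The CIP/KIP proteins p21 (Cdkn1a) and p27 (Cdkn1b) bind complexes of cyclins with several CDKs, whereas the INK4 proteins p16 (Cdkn2a), p15 (Cdkn2b), p18 (Cdkn2c) and p19INK4d (Cdkn2d) bind CDK4 and CDK6 and so keep the retinoblastoma protein active. Cdkn2a also encodes, from another first exon and in another reading frame, p19ARF, which restrains the ubiquitin ligase MDM2 and thereby stabilizes p53. The transcription factor p53 in turn activates Cdkn1a, Mdm2, Ccng1 and Phlda3. In keratinocytes, p16 and p15 are widely used as markers of senescence in culture, while p21 is also switched on as cells leave the basal layer.

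Between 53433121 and 115526598 reads per library were assigned to genes. Reads of Dnmt1 itself were at 394, 379 and 324 counts scaled to library size (CPM) among controls and at 49.7, 54.3 and 50.7 CPM among Dnmt1Δ/Δep libraries (log2 fold change -2.83, SE 0.11, edgeR quasi-likelihood test, Benjamini-Hochberg adjusted p = 8.1e-05), in accordance with the labels. Control replicate 1 stood apart: 3.64% of tested genes were over 2-fold from the mean of the other control libraries while those differed by less than 2-fold, against 0.178% to 1.52% for each of the other 5 libraries. Basal keratinocyte markers were abundant, with a summed level of 28816 to 32701 CPM among controls and 21800 to 22221 CPM among Dnmt1Δ/Δep libraries, and 3 of 6 (Krt5, Krt14 and Col17a1) fell (edgeR adjusted p = 0.038, 0.028 and 0.035). Markers of differentiated keratinocytes were at 80.4 to 598 and 116 to 185 CPM, with none of the 4 tested passing and values on both sides of 0 (log2 fold change of Krt1 -2.30, Krt10 -1.58, Lor 1.70 and Ivl 1.61, edgeR adjusted p = 0.085, 0.069, 0.054 and 0.061). Among other cell types, 7 melanocyte markers summed to 168 to 421 CPM among controls and 497 to 638 CPM among Dnmt1Δ/Δep libraries, without 1 of them passing the test. The 7 fibroblast markers summed to 13.5 to 30.2 and 14.3 to 62.6 CPM, again with none passing. Leukocyte markers stayed at or under 4.41 CPM in sum (0.275 to 1.01 in control, 2.52 to 4.41 in Dnmt1Δ/Δep libraries), with Itgam and Csf1r passing upwards. A gene on the same strand overlaps 68.7% of the exon bases of Itgam, and a gene on the other strand overlaps 15.1% of those of Csf1r. The pan-leukocyte gene Ptprc was at 0 in 3 libraries and had 12 reads in Dnmt1Δ/Δep replicate 1. The 3 endothelial markers summed to 4.32 to 16.5 and 13.5 to 20.8 CPM, with Pecam1 and Cdh5 passing upwards. The part of these shifts in the differences described below was not tested, and in bulk RNA fewer cells with a transcript and less transcript per cell cannot be told apart.

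Cdkn2a and Cdkn2b lie next to each other on the minus strand of chromosome 4 (GRCm38). Cdkn2a spans chr4:89274471-89294653 and Cdkn2b spans chr4:89306299-89311039, with 11645 bases between them. The 2 annotated Cdkn2a transcripts start 12461 bases apart, the p16INK4a transcript at position 89282192 and the p19ARF transcript at 89294653. Their first exons are 207 and 320 bases long, but 575 of the 1172 exon bases of the gene (49.1%) belong to both, so a read count of the whole gene does not separate p16INK4a from p19ARF. DNMT1 copies methylation at CpG dinucleotides, and no methylation was measured in these libraries, so the upstream sequences are shown for their CpG content alone. In the 250 bases before a start site, the median of 32841 mouse promoters in RefSeq (GRCm38.p6) was 6 CpG. The p19ARF start had 40 CpG in that window, and 98.7% of promoters had fewer. The p16INK4a start had 7 CpG, and Cdkn2b had 12 CpG. The sequences are printed 5′ to 3′ on the minus strand, with each CpG in capitals. Where the first exon in GENCODE starts further upstream than in RefSeq, the bases it covers are left out. These are 34 bases for p19ARF, with 35 CpG in the 216 bases shown, and 7 bases for Cdkn2b, with 11 CpG in the 243 bases shown.
Cdkn2a, before the p19ARF start, chr4:89294654-89294869: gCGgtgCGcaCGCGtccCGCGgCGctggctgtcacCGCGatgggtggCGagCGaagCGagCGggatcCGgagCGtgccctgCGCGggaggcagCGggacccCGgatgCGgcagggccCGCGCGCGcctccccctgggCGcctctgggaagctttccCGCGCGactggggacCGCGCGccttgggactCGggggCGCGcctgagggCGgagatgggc
Cdkn2a, before the p16INK4a start, chr4:89282193-89282442: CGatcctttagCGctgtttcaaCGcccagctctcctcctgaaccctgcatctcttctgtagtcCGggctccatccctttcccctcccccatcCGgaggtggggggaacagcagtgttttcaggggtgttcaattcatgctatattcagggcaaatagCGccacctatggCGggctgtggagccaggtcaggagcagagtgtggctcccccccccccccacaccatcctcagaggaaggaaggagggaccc
Cdkn2b, chr4:89311040-89311282: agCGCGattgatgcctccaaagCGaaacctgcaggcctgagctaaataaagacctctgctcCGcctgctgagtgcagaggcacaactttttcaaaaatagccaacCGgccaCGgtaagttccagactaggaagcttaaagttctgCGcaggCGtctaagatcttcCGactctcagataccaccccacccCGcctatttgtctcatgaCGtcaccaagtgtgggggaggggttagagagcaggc
The 3 windows differ, from a dense run of CpG at p19ARF to a number close to the median at p16INK4a. Over all 10 genes RefSeq gave 13 start sites, 11 of which were above the median of 6 CpG. Among genes whose level differed little between the groups, Cdkn2d had 16 CpG and Phlda3 had 18 CpG, so a CpG count above the median was not particular to Cdkn2a and Cdkn2b. Cdkn1b (28 CpG) and the upstream start of Cdkn2c (29 CpG), both lower in Dnmt1Δ/Δep libraries, were CpG-rich as well.

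In control keratinocytes Cdkn2a was close to the limit of detection. It had 23, 16 and 4 reads in control replicates 1, 2 and 3, against 106, 139 and 154 reads in the Dnmt1Δ/Δep replicates. Scaled by library size this was 0.243, 0.164 and 0.0745 CPM among controls and 1.78, 1.61 and 1.31 CPM among Dnmt1Δ/Δep libraries, where 3 reads, taken as the limit of a zero count, correspond to 0.0254 to 0.0558 CPM. Every Dnmt1Δ/Δep library was above every control library, and the mean was 9.74-fold higher (log2 fold change 3.22, SE 0.42). Each replicate number shared a sequencing lane between a control and a Dnmt1Δ/Δep library, and within lanes the log2 ratios were 2.87, 3.29 and 4.13. Cdkn2a was nonetheless the scarcest of the 10 transcripts in both groups, at a mean of 0.137 RPKM (CPM per kilobase of exon) in control and 1.33 RPKM in Dnmt1Δ/Δep libraries.

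Cdkn2b, which encodes p15 and is a classical target of TGF-β signalling, was at 5.65, 8.36 and 8.60 CPM among controls and at 18.8, 21.5 and 17.2 CPM among Dnmt1Δ/Δep libraries. The groups did not overlap, and the lowest Dnmt1Δ/Δep library was at 17.2 CPM where the highest control library was at 8.60 CPM. The mean was 2.55-fold higher (log2 fold change 1.35, SE 0.19). Within lanes the log2 ratios were 1.73, 1.37 and 1.0, the largest of them in the lane of control replicate 1, which had the lowest control level. Without control replicate 1 the log2 fold change was 1.18 for Cdkn2b and 3.61 for Cdkn2a.

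The other INK4 genes were lower or little different. Cdkn2c (p18) was at 29.1, 38.2 and 34.4 CPM among controls and at 19.6, 21.9 and 23.2 CPM among Dnmt1Δ/Δep libraries. All 3 Dnmt1Δ/Δep libraries were below all control libraries (log2 fold change -0.65, SE 0.13), and the ratio was below 1 in each lane. Cdkn2d (p19INK4d) was at 15.1, 18.4 and 18.8 CPM among controls and at 13.2, 16.5 and 12.9 CPM among Dnmt1Δ/Δep libraries. Here the groups overlapped, since Dnmt1Δ/Δep replicate 2 exceeded control replicate 1 (log2 fold change -0.29, SE 0.15).

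Per length of annotated exon, the opposite differences partly offset each other across the INK4 family. The summed level of the 4 INK4 genes was 29.2 ± 3.97 RPKM among controls and 32.2 ± 2.90 RPKM among Dnmt1Δ/Δep libraries (SD, n = 3 each), with ranges of 24.7 to 32.0 and 30.4 to 35.5 RPKM that overlapped. The make-up of the sum was different. Cdkn2b made up 18.4% ± 1.79 of the INK4 sum for controls against 42.8% ± 1.72 for Dnmt1Δ/Δep libraries (SD, n = 3 each). The share of Cdkn2c was 43.2% ± 1.64 and 25.1% ± 2.98, and that of Cdkn2d was 37.9% ± 1.31 and 27.9% ± 1.39. Cdkn2a contributed 0.494% ± 0.321 for controls against 4.16% ± 0.689 for Dnmt1Δ/Δep libraries. By RPKM, Cdkn2b was thus the least abundant INK4 transcript but for Cdkn2a in control, and the most abundant in Dnmt1Δ/Δep libraries. The latter rank depends on the exon length used. In CPM, Cdkn2c was above Cdkn2b in Dnmt1Δ/Δep libraries, with means of 21.6 and 19.2 CPM.

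**Figure D1:**
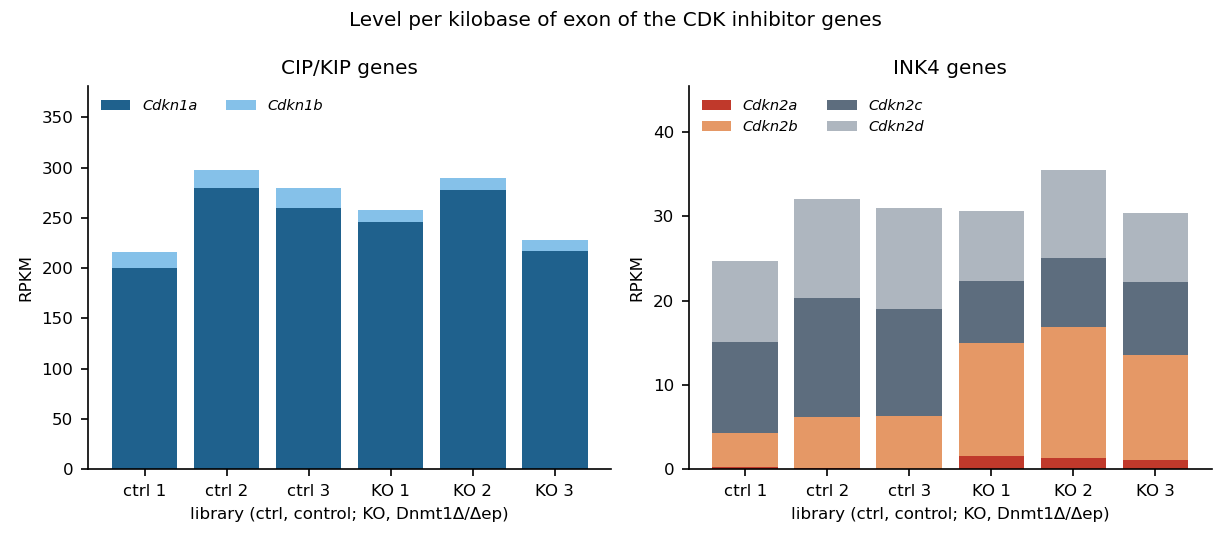
Level of the CIP/KIP genes Cdkn1a and Cdkn1b (left) and the INK4 genes (right) in each library, as stacked bars in RPKM on separate linear axes that start at 0. Cdkn1c, the remaining CIP/KIP gene, is not drawn. The INK4 sum lies between 24.7 and 35.5 RPKM in all 6 libraries, while Cdkn2b takes 18.4% of it on average among controls and 42.8% among Dnmt1Δ/Δep libraries.

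The CIP/KIP gene Cdkn1a (p21; chr17:29090976-29100727) was by far the most abundant inhibitor. It was at 712, 994 and 924 CPM among controls and at 873, 989 and 770 CPM among Dnmt1Δ/Δep libraries. The ranges overlapped and the means were equal, with 877 ± 147 CPM among controls and 877 ± 109 CPM among Dnmt1Δ/Δep libraries (SD, n = 3 each; log2 fold change 0.00, SE 0.16). Within lanes the log2 ratio was 0.29, -0.01 and -0.26, so the sign differed between lanes. Without control replicate 1 the log2 fold change was -0.13. A non-coding gene on the opposite strand overlaps 7.68% of its exon bases, and the strand setting of the counting was not given in the sources used here.

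Cdkn1a is the best known transcriptional target of p53, so the upstream of its 2 start sites was searched for the p53 half-site, a palindromic 10-base motif that reads the same on both strands. Only exact matches to the motif were counted. The upstream start, at position 29090979 on the plus strand, had 2 such half-sites within 250 bases. They lay at positions -73 to -64 and -51 to -42 from the start, with 12 bases between them. The 10 bases directly after the second match, tgacatgttc, miss the motif at their first base and so were not counted. Of all mouse promoters in RefSeq, 0.259% had 2 or more. The start 2790 bases further downstream had none in its window. The window before the upstream start is shown, without the 3 bases nearest the start that a GENCODE exon covers, with both exact matches in capitals.
Cdkn1a, chr17:29090729-29090975: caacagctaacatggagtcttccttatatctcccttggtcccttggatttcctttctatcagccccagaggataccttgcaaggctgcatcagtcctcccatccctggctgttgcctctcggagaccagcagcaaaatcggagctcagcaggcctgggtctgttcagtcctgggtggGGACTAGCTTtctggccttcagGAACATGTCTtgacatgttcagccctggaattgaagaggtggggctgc
A match describes these letters only. Windows of Ccng1, Cdkn2d, Mdm2 and Trp53 held 1 half-site each, which made 5 of the 13 windows, compared with 7.13% of all promoters. The list was drawn up to hold genes of the p53 response, so nothing is read from this share.

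Cdkn1b (p27; chr6:134920401-134925513), which holds cells in quiescence, was lower in Dnmt1Δ/Δep cells. Its levels were 73.5, 82.1 and 90.3 CPM among controls and 56.5, 52.5 and 53.5 CPM among Dnmt1Δ/Δep libraries. The groups did not overlap, and the Dnmt1Δ/Δep libraries lay within a narrow range (log2 fold change -0.60, SE 0.11). The log2 ratio was negative in every lane, at -0.38, -0.64 and -0.75.

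Because Cdkn1a outweighed the rest, the 6 inhibitors together were at 294 ± 46.7 RPKM among controls and 291 ± 33.3 RPKM among Dnmt1Δ/Δep libraries (SD, n = 3 each). Cdkn1a made up 83.8% of this sum for controls against 84.8% for Dnmt1Δ/Δep libraries. Cdkn2a made up 0.0496% and 0.459%. The 4 INK4 genes together made up 9.71% to 10.2% of it among controls and 10.6% to 11.7% among Dnmt1Δ/Δep libraries. These ranges did not overlap, whereas those of the INK4 sum in RPKM did. In the libraries as a whole the transcript with the largest fold change was therefore also the one that contributed least to the total.

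**Figure D2:**
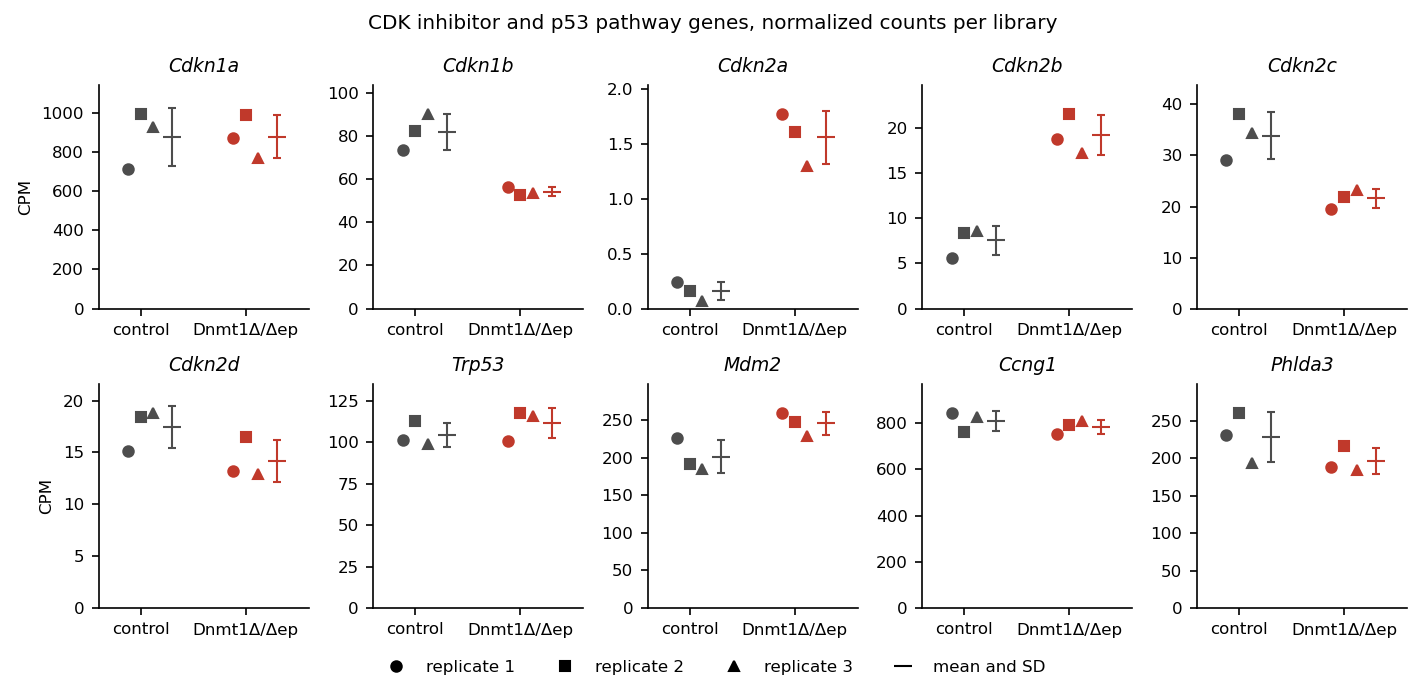
Level of each of the 10 genes in CPM (linear axes from 0, 1 per gene), with 1 point per library, symbols for replicate numbers and the mean with its SD beside each group. Control and Dnmt1Δ/Δep libraries do not overlap for Cdkn1b, Cdkn2a, Cdkn2b, Cdkn2c and Mdm2, and overlap for the other 5 genes.

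On the p53 side, the transcript of p53 itself differed little. Trp53 (chr11:69580359-69591873) was at 102, 113 and 99.1 CPM among controls and at 101, 118 and 116 CPM among Dnmt1Δ/Δep libraries. The groups overlapped, and the log2 fold change of 0.10 was smaller than its SE of 0.10 before rounding. Activity of p53 is set largely at the protein, which was not measured here.

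Mdm2 (chr10:117688875-117710758), both a target of p53 and its main inhibitor, was at 226, 192 and 186 CPM in control. In Dnmt1Δ/Δep libraries it was at 260, 248 and 229 CPM. Each Dnmt1Δ/Δep library was above each control library, but by little, with 229 CPM for the lowest against 226 CPM for the highest (log2 fold change 0.29, SE 0.11). The ratio was above 1 in all 3 lanes, with log2 values of 0.20, 0.37 and 0.31.

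The other p53 targets on the list did not share that direction. Ccng1 (cyclin G1; chr11:40748552-40755311), an atypical cyclin that feeds back on MDM2 and p53, was at 845, 763 and 825 CPM among controls and at 752, 792 and 810 CPM among Dnmt1Δ/Δep libraries. The ranges overlapped, and the log2 fold change of -0.05 was within its SE of 0.09. Phlda3 (chr1:135766119-135769136), a p53 target that restrains AKT signalling, was at 232, 261 and 194 CPM among controls and at 189, 216 and 185 CPM among Dnmt1Δ/Δep libraries. Its ranges overlapped too, with a log2 fold change of -0.22 and an SE of 0.13.

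**Figure D3:**
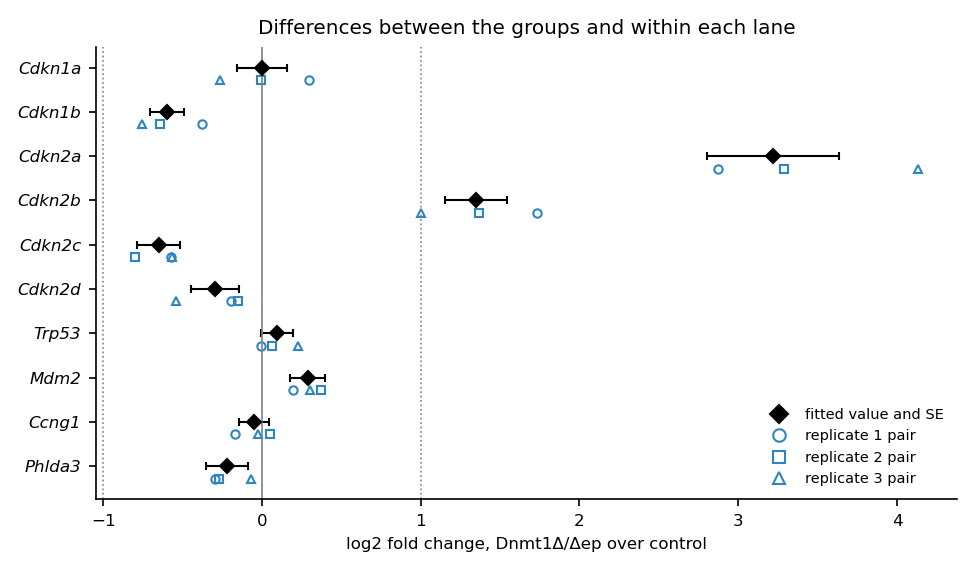
Log2 fold change of each gene, Dnmt1Δ/Δep over control, as the fitted value with its SE (diamonds) and as the ratio within each sequencing lane (open symbols); dotted lines mark 2-fold. Cdkn2a (3.22) and Cdkn2b (1.35) lie beyond 2-fold, and the other 8 genes lie between -0.65 and 0.29.

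Ranked by RPKM, the order was nearly the same in both groups. In control it ran from Cdkn1a (247 RPKM) and Ccng1 (231 RPKM) through Phlda3 (147 RPKM), Mdm2 (39.6 RPKM), Trp53 (25.8 RPKM), Cdkn1b (18.0 RPKM), Cdkn2c (12.6 RPKM), Cdkn2d (11.1 RPKM) and Cdkn2b (5.42 RPKM) to Cdkn2a (0.137 RPKM). Neighbours in this order whose libraries overlapped, and so could not be ranked, were Cdkn1a with Ccng1 and Cdkn2c with Cdkn2d. In Dnmt1Δ/Δep libraries Cdkn2b (13.8 RPKM) came before Cdkn1b (11.9 RPKM), with overlapping libraries, and Cdkn2c (8.03 RPKM) came after Cdkn2d (9.02 RPKM), again with overlap. Over all 6 libraries the spread was largest for Cdkn2a, whose highest level was 23.9-fold its lowest, and smallest for Ccng1, at 1.12-fold.

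Counted against the whole transcriptome, 2 of the 10 genes (Cdkn2a and Cdkn2b) were past an adjusted p of 0.05 and a 2-fold difference, both in the higher direction, where 6.42% of the 16829 genes tested were, with 6.03% higher and 0.392% lower. At the adjusted p alone the count was 4 of 10, adding Cdkn1b and Cdkn2c, where it was 9.36% of all genes, with 7.71% higher and 1.66% lower. That count was 2, Cdkn2a and Cdkn2b, without control replicate 2 or without any 1 of the Dnmt1Δ/Δep libraries, 3 without control replicate 3, and 5, with Mdm2 added, without control replicate 1. Groups did not overlap for 5 of 10, compared with 29.9% of all genes, 3 of them higher in Dnmt1Δ/Δep libraries (18.2% of all genes) and 2 lower (11.7% of all genes). As the genes were chosen with this comparison known, nothing is read from these shares. The median log2 fold change was -0.02 over the 10 genes and -0.00 over all genes tested, with 5 of the 10 positive. All members kept their values under the other settings tried to within 1 SD of the replicates, and the count of 2 was the same in each.

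The pair past both thresholds shares a locus, so the surrounding 500 kb were examined. Of 37 annotated genes, 17 had any read and 8 were tested. Besides Cdkn2a and Cdkn2b, 2 of the 6 others tested rose past both thresholds, where 6.03% of all genes did. The window was picked for the members in it, so nothing is read from this count. Gm12602, a non-coding transcript on the far side of Mtap, was at 0.381, 0.267 and 0.372 CPM among controls and at 2.95, 1.53 and 2.35 CPM among Dnmt1Δ/Δep libraries (log2 fold change 2.74, SE 0.34, edgeR adjusted p = 0.0037). It was past both thresholds in all 11 alternative analyses. Gm12606, a long non-coding gene that begins 1067 bases beyond the 3′ end of Cdkn2a on the same strand, was at 1.63, 0.913 and 2.36 CPM among controls and at 5.74, 4.43 and 3.50 CPM among Dnmt1Δ/Δep libraries (log2 fold change 1.49, SE 0.37, edgeR adjusted p = 0.049). That call held in 6 of 11 alternatives and was lost without any 1 of control replicates 1 and 2 or Dnmt1Δ/Δep replicates 1, 2 and 3.

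The housekeeping gene of the locus did not pass. Mtap, which recycles methylthioadenosine, was at 138, 74.7 and 68.2 CPM among controls and at 118, 116 and 109 CPM among Dnmt1Δ/Δep libraries (log2 fold change 0.29, edgeR adjusted p = 0.58), where control replicate 1 was the highest library. Without that library its log2 fold change was 0.68 and it passed. Wincr1 (0.96, adjusted p = 0.38), Dmrta1 (2.58, adjusted p = 0.079, at most 17 reads in a library) and Mir31 (0.00, adjusted p = 0.998) did not pass in edgeR either, and without control replicate 1 Wincr1 did, at 1.96. The 8 genes of the window with an interferon symbol (Ifn) had at most 5 reads in any library.

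**Figure D4:**
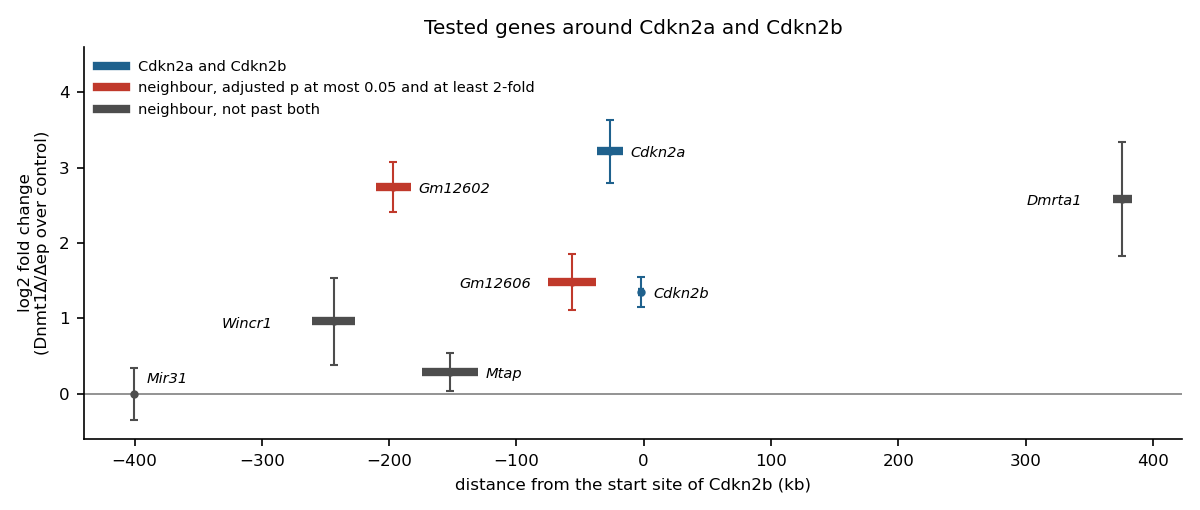
Log2 fold change with its SE of the 8 tested genes within 500 kb of Cdkn2a and Cdkn2b, against their distance from the Cdkn2b start site in kilobases; horizontal bars span each gene. Cdkn2a (3.22) and Gm12602 (2.74) lie highest, and Mtap (0.29), located between Gm12602 and Gm12606, lies near 0.

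The pathway lists that follow were, like the members, drawn up with earlier results known, and their shares are read no further than the counts. Regulators of the INK4-ARF locus came first. Of 16 such genes, mostly Polycomb subunits and transcription factors, 2 rose at the adjusted p (12.5%, against 7.71% of all genes) and none fell, with a median log2 fold change of -0.01. Cbx7, a Polycomb reader of H3K27me3 known to repress the locus, was at 7.80, 8.71 and 7.86 CPM among controls and at 14.4, 13.9 and 14.5 CPM among Dnmt1Δ/Δep libraries (log2 fold change 0.81, edgeR adjusted p = 0.0081). Tbx2, a T-box repressor, was scarce and rose from a mean of 0.381 CPM to 0.960 CPM (log2 fold change 1.32, edgeR adjusted p = 0.044), but this call was lost without any 1 of the 6 libraries. Bmi1, the Polycomb repressor most closely tied to this locus, had a log2 fold change of -0.11 (edgeR adjusted p = 0.80), and Ezh2, which writes H3K27me3, had -0.30 (edgeR adjusted p = 0.15). With a block for the sequencing lane Kdm6b, an H3K27 demethylase, also rose (0.37, edgeR adjusted p = 0.041) and Ets2 fell (-0.37, edgeR adjusted p = 0.039).

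Among 38 further p53 target genes, 3 passed the test, 2 upwards and 1 downwards, a share of 7.89% where 9.36% of all genes passed. The stress cytokine Gdf15 rose from 1.62, 1.32 and 1.38 CPM in control to 9.80, 11.8 and 6.88 CPM in Dnmt1Δ/Δep libraries (log2 fold change 2.72, edgeR adjusted p = 0.0010), and did so under all 11 alternatives. Steap3, a metalloreductase, rose by less (log2 fold change 0.63, edgeR adjusted p = 0.023). Trp73, the p53 relative p73, fell by 0.97 on the log2 scale (edgeR adjusted p = 0.028), with 5.06% of its exon bases overlapped by the antisense gene Trp73os. Neither Steap3 nor Trp73 passed when any 1 library other than control replicate 1 was left out. The apoptosis genes Bax (-0.30, adjusted p = 0.24) and Bbc3 (-0.75, adjusted p = 0.11) and the RNA-binding factor Zmat3 (-0.08, adjusted p = 0.69) did not pass in edgeR. The list had a median log2 fold change of -0.14, with 26 of 38 values negative. With the lane block 5 genes fell and the same 2 rose, the added ones being Bax (-0.30, adjusted p = 0.049), Bbc3 (-0.72, adjusted p = 0.032), Sesn1 (-0.91, adjusted p = 0.018) and Ddb2 (-0.47, adjusted p = 0.038). In that fit 603 of the 16829 genes tested fell at the adjusted p and 1686 rose. Without control replicate 1 the count that fell was 5, and without any 1 of the other libraries it was 0.

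None of 19 p53 regulators passed in edgeR, against 9.36% of all genes, and none passed in DESeq2. In edgeR 1 of the 19 had an unadjusted p under 0.05, against 23.6% of all genes. Their log2 fold changes ran from -0.35 to 0.21, with a median of -0.13. Mdm4, the partner of MDM2, had 0.21 (adjusted p = 0.25), the DNA damage kinase Atm had -0.07 (adjusted p = 0.92) and Trp63, the p53 relative that maintains basal keratinocytes, had -0.26 (adjusted p = 0.38), all in edgeR. Leaving out control replicate 1 gave 1 regulator that fell.

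The cell cycle genes around the inhibitors were taken as a list of 32, holding CDKs, cyclins, E2F and pocket protein genes as well as Cdkn1c, Cdkn3, Cdc25a, Cdc37, Skp2, Cks1b, Foxo1 and Foxo3. Of these 1 rose and 1 fell at the adjusted p (6.25%, against 9.36% of all genes) and none passed 2-fold, and 27 of 32 log2 fold changes were negative (median -0.24). Cdkn1c (p57), the remaining CIP/KIP gene, was at 9.61, 8.44 and 5.90 CPM among controls and at 14.0, 15.3 and 13.9 CPM among Dnmt1Δ/Δep libraries (log2 fold change 0.85, edgeR adjusted p = 0.038). An antisense gene overlaps 30.7% of its exon bases, and it did not pass in 5 of the 6 analyses that left out a library. Tfdp2, a dimerization partner of E2F, fell by 0.89 on the log2 scale (edgeR adjusted p = 0.0080). The kinases bound by INK4 proteins, Cdk4 (-0.16, adjusted p = 0.45) and Cdk6 (0.14, adjusted p = 0.78), did not pass in edgeR, nor did Ccnd1 (0.41, adjusted p = 0.56), Rb1 (-0.19, adjusted p = 0.74) and E2f1 (-0.25, adjusted p = 0.33). Without control replicate 1, the control library with the highest Ccnd1 level at 831 CPM, Ccnd1 rose by 0.94 on the log2 scale, with 23.4% of its exon bases overlapped by a gene on the other strand. With the lane block 4 genes fell, Cdk1, Rbl2 and E2f2 in addition to Tfdp2, where 603 of the 16829 genes tested fell in that fit.

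Of 12 proliferation markers 2 fell (16.7%, against 1.66% of all genes) and none rose, with a median log2 fold change of -0.40 and 11 of 12 values negative. Top2a (-0.41, adjusted p = 0.040) and Aurkb (-0.46, adjusted p = 0.044) fell in edgeR, and Mki67 did not pass (-0.21, adjusted p = 0.84). Aurkb did not pass when any 1 library was left out, and Top2a did not when any 1 other than control replicate 1 was, nor without the filter on low counts. With the lane block 5 of 12 fell, Pcna, Plk1 and Bub1 being added, where 603 of the 16829 genes tested fell in that fit. Without control replicate 1 there was 1 marker that fell and 1 that rose.

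Genes often measured alongside p16 in senescent cells were examined as well. Of 23, 22 were tested, 5 rose past both thresholds (22.7%, against 6.03% of all genes) and none fell (0.392% of all genes), and the median log2 fold change was 0.87 where it was -0.00 over all genes. Its count is not independent evidence of its direction. All 5 were secreted inflammatory or growth factors. Il1a was at 9.57, 2.53 and 4.45 CPM among controls and at 111, 92.0 and 49.5 CPM among Dnmt1Δ/Δep libraries (log2 fold change 3.93, edgeR adjusted p = 0.0057), and an antisense gene overlaps 11.2% of its exon bases. The chemokines Ccl2 (3.43, adjusted p = 0.0075), Cxcl1 (3.06, adjusted p = 0.0056) and Cxcl2 (3.0, adjusted p = 0.016) rose with it in edgeR, as did the EGF receptor ligand Areg (1.83, adjusted p = 0.022). Areg was lost without control replicate 2 or without Dnmt1Δ/Δep replicate 1 or 2, and Cxcl2 without Dnmt1Δ/Δep replicate 1. The count of 5 became 9 when control replicate 1 was left out and 3 when Dnmt1Δ/Δep replicate 1 was. These cytokines are also part of the innate immune response of keratinocytes. Lmnb1, the lamin whose loss marks senescence, did not pass (-0.31, edgeR adjusted p = 0.44). With the lane block 8 genes of this list rose past both thresholds, with Igfbp7 and Plaur among those added, and the chromatin proteins Hmgb1 and Hmgb2 fell. In that fit 1173 of the 16829 genes tested rose past both thresholds, and 603 fell at the adjusted p.

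**Figure D5:**
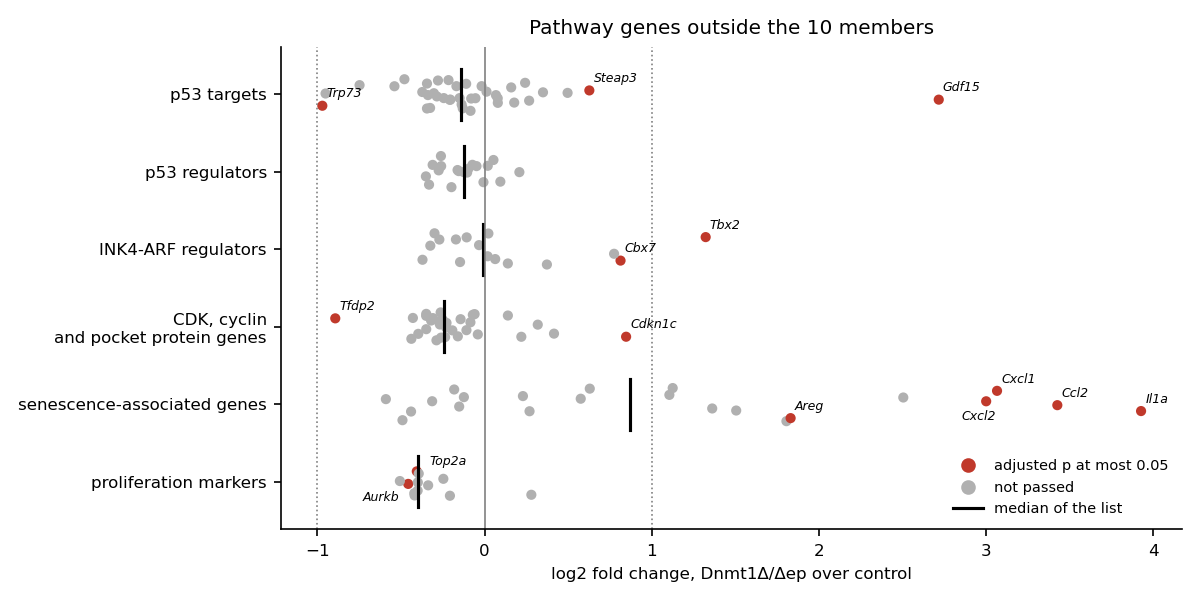
Log2 fold change, Dnmt1Δ/Δep over control, of the pathway genes outside the 10 members, 1 point per tested gene and 1 row per list; red points passed the adjusted p, black bars are medians and dotted lines mark 2-fold. The medians lie between -0.40 and -0.01 except for the senescence-associated list at 0.87, whose named points are all cytokines, chemokines or growth factors.

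Finally, the genes whose levels followed those of Cdkn2a, Cdkn2b and Cdkn1a most closely over the 6 libraries were listed among 12462 genes with a mean of at least 1 CPM. The Pearson correlation of log2 levels includes the difference between the groups, so it describes these 6 libraries and no more. For Cdkn2a the 5 most alike were Ada, Osgin1, Entpd7, Nr2c1 and Ppm1l, and 340 genes had a correlation of at least 0.95. For Cdkn2b they were Col14a1, Vtcn1, Cfap57, Dnaaf3 and Tmem30b, among 351 such genes. Cdkn1a, whose variation was between libraries rather than between groups, had 23 such genes, led by Prrg2, Necap2, Tmem79, March3 and Zfp710.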

How the data were processed

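The authors trimmed adapters with cutadapt, removed ribosomal reads with Bowtie2, mapped what remained with STAR and assigned reads to genes with HTSeq (union mode), and the deposited values are raw counts per Ensembl gene. The submitters' processing notes name GRCm38, whereas the study's methods name a human index for the gene alignment. The deposited identifiers are mouse genes, and GRCm38 was taken as the build. Entries naming no gene held 8.73% to 12.9% of all counts and did not enter library sizes. The deposited repeat counts were not used here, nor were tables of the authors' own comparisons, which hold fold changes, p-values and normalized counts. Symbols matched 42548 of 43629 identifiers (97.5%). Positions and exon lengths came from GENCODE M21, promoter sequences from RefSeq (GRCm38.p6).

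Libraries were grouped by genotype label. Counts were filtered with filterByExpr (minimum counts 10 and 15), normalized by TMM (factors 0.980 to 1.02) and tested with edgeR's quasi-likelihood test, Dnmt1Δ/Δep against control, with Benjamini-Hochberg adjustment over 16829 genes. Calls required an adjusted p up to 0.05 and at least 1 on the log2 scale. CPM are counts scaled to the normalized library size, and RPKM are CPM per kilobase of annotated exon. Limits from counts of 0 to 3 cover counting error only. R 4.3.3 was used with edgeR 4.0.16 and DESeq2 1.42.0, and Python 3.11.15 and pandas 2.3.3. The fits were tested on simulated counts without a lane effect. The p-values weigh the difference between the groups against the spread between these libraries.

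Same-numbered control and Dnmt1Δ/Δep libraries shared a flow-cell lane per the file headers, and their deviations from the group means correlated (Pearson r 0.46, 0.36 and 0.30), so the numbers were taken to pair the libraries and a fit with this block was an alternative. Others were other size factors, DESeq2, no filter and leaving out each library. The members and gene lists were chosen with earlier results of these data known. Named were all members, Dnmt1, list genes past both thresholds or up to 3 per direction with the largest change at the adjusted p, 17 fixed pathway genes, genes within 500 kb of Cdkn2a or Cdkn2b, and the 5 most alike genes; those added by the lane block were chosen once their values had been seen. By name, 1 senescence-associated gene is not reported here.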

Additional observations from a re-analysis of the deposited data

How the results depend on the processing

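With 3 libraries per group the counts of calls depended on single libraries, whereas the log2 fold changes of the 10 genes stayed within 1 SD under each of 11 alternatives. Genes past both thresholds were 1014 higher and 66 lower, and between 559 and 1183 higher and between 15 and 180 lower when 1 library was left out, the highest counts coming without control replicate 1 and the lowest without control replicate 2 or Dnmt1Δ/Δep replicate 1. Those lower numbered 122 with DESeq2 and 107 without a filter on low counts. Of the p53 targets, 1 in place of 0 was past both thresholds in the lower direction with RLE size factors, DESeq2, no filter or without control replicate 1 (left-out range 0 to 1). The INK4-ARF regulator past both thresholds, Tbx2, was lost without a filter (0 in place of 1) and in each analysis without a library (0 to 0). Senescence-associated genes past both thresholds numbered 9 with DESeq2, 9 without a filter and 8 with the replicate block, compared with 5, and 3 to 9 when a library was left out, with 3 without Dnmt1Δ/Δep replicate 1 and 9 without control replicate 1. The replicate block moved the genes lower at the adjusted p alone from 279 to 603 (658 with DESeq2, 650 without control replicate 1, 35 without control replicate 2, 37 without Dnmt1Δ/Δep replicate 1, and 63, 79 and 133 without Dnmt1Δ/Δep replicates 2 and 3 and control replicate 3), so the share of 1.66% moves with it. The replicate block gave 1173 genes higher and 95 lower past both thresholds, and its changes to the pathway lists are given with them. The counts of members at the adjusted p alone were 2 to 5 when a library was left out, the most without control replicate 1. Values of Cdkn2a rest on 4 to 23 reads in control libraries. The causes of these shifts were not tested.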

Other observations

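Some senescence-associated genes that did not pass differed among the Dnmt1Δ/Δep libraries, and they are named here after their values were seen. Igfbp5 was at 7.13, 1.67 and 6.33 CPM in Dnmt1Δ/Δep replicates 1, 2 and 3 and at 1.37, 1.85 and 1.08 CPM in control. Mmp3 was at 79.1, 14.8 and 63.4 CPM in Dnmt1Δ/Δep libraries and at 26.1, 33.7 and 13.2 CPM in control. In both genes Dnmt1Δ/Δep replicate 2 was the lowest library of its group, as it was for the fibroblast collagens Col1a1 (16.7, 3.63 and 16.4 CPM) and Col1a2 (16.0, 2.31 and 12.5 CPM).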
